A study of Glycine max with 12 samples.

Results

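The *PUB22* pair comprises the soybean genes Glyma.10G262600 and Glyma.19G199300, on chromosomes 10 and 19 by their identifiers, both annotated by the study as the U-box E3 ubiquitin ligase PUB22. They are 2 of the 53808 genes counted, and both passed the filter on low counts, as did 42839 genes in all, Glyma.10G262600 only through its reads in heated OE2. The pair was selected on its read counts at high temperature (HT), where the study called both genes higher in *GmMYB21a-OE2* than in TL1. The line difference at HT, and the heat changes and interaction that use the same HT libraries, are therefore given for them as values with their errors and without a test. The 6 libraries at normal temperature (NT) had no part in that choice and were tested for Glyma.19G199300 and for the sum of the pair.

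RNA was sequenced from flower buds taken from the upper, middle and lower plant. TL1 is the cultivar Tianlong No. 1, a restorer line for cytoplasmic male sterility, and *GmMYB21a-OE2* (OE2) is 1 line made in it with the pTF101.1 vector to overexpress the transcription factor gene *GmMYB21a*. The promoter that drives the transgene is not given in the sources used here, and its line effects rest on this 1 line. The 4 groups were TL1 and OE2 at NT, 28 °C by day and 22 °C by night, and TL1 and OE2 at HT, 40 °C by day and 34 °C by night for 5 d, with 3 libraries each. The titles give these groups, whereas the treatment entry of all 12 libraries reads high temperature. Total counts were 32058303 to 39654590 per library (median 36007315). Replicate 3 of OE2 at HT stood apart from the others of its group, with a chi-square per degree of freedom over genes of 11.7 and 14.8 against them, where the 10 other pairs of replicates had 2.71 to 5.09. Fold changes and list counts that rest on heated OE2 are in most cases given also without it, and its value is in the group means. In bulk buds, a change in RNA per cell and a change in the number of cells that express a gene cannot be told apart.

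U-box proteins are ubiquitin ligases, the last enzymes in the chain that attaches ubiquitin to a protein. The U-box recruits an E2 conjugating enzyme that carries ubiquitin, and other parts of the protein bind the substrate, which is often then degraded by the proteasome. In Arabidopsis, PUB22 and its relatives PUB23 and PUB24 dampen the immune response to microbial patterns, PUB22 targets the exocyst subunit Exo70B2, and PUB22 and PUB23 also restrain the response to drought. These roles are known from Arabidopsis and were not measured in soybean buds here. Levels are given as CPM, read counts scaled to a common library size by the TMM method, and are not corrected for gene length, so they are compared between groups and not between genes.

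Glyma.19G199300 was highest in heated OE2 and lowest in heated TL1. It had 1.32, 1.38 and 1.0 CPM in TL1 at NT, from 47, 46 and 32 reads. In OE2 at NT it had 1.31, 1.15 and 1.22 CPM, from 47, 40 and 42 reads. At HT it had 0.420, 0.354 and 0.566 CPM in TL1, from 15, 14 and 19 reads. In heated OE2 it had 3.59, 3.86 and 4.71 CPM, from 136, 162 and 184 reads. The order of the group means was OE2 at HT (4.05 ± 0.585 CPM, SD, n = 3), TL1 at NT (1.23 ± 0.205 CPM), OE2 at NT (1.23 ± 0.0829 CPM) and TL1 at HT (0.447 ± 0.108 CPM). The NT groups overlapped, and each HT group lay apart from them and from the other.

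Glyma.10G262600 was near the detection limit in all groups but heated OE2. It had 3 reads in each TL1 library at NT, or 0.0844, 0.0901 and 0.0938 CPM. In OE2 at NT it had 5, 4 and 5 reads, or 0.140, 0.115 and 0.146 CPM. In heated TL1 it had 4, 2 and 3 reads, or 0.112, 0.0506 and 0.0894 CPM. In heated OE2 it had 52, 37 and 48 reads, or 1.37, 0.882 and 1.23 CPM. The group means ran from OE2 at HT (1.16 ± 0.252 CPM, SD, n = 3) through OE2 at NT (0.133 ± 0.0163 CPM) and TL1 at NT (0.0894 ± 0.00472 CPM) to TL1 at HT (0.0840 ± 0.0310 CPM). The TL1 groups overlapped. The OE2 and TL1 libraries at NT did not, but they were only 1 or 2 reads apart, which counting error alone covers. This gene is paired through its KEGG entry with LOC100811258, a protein-coding gene with 1 transcript on chromosome 10 of the RefSeq assembly Glycine_max_v4.0.

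**Figure D1:**
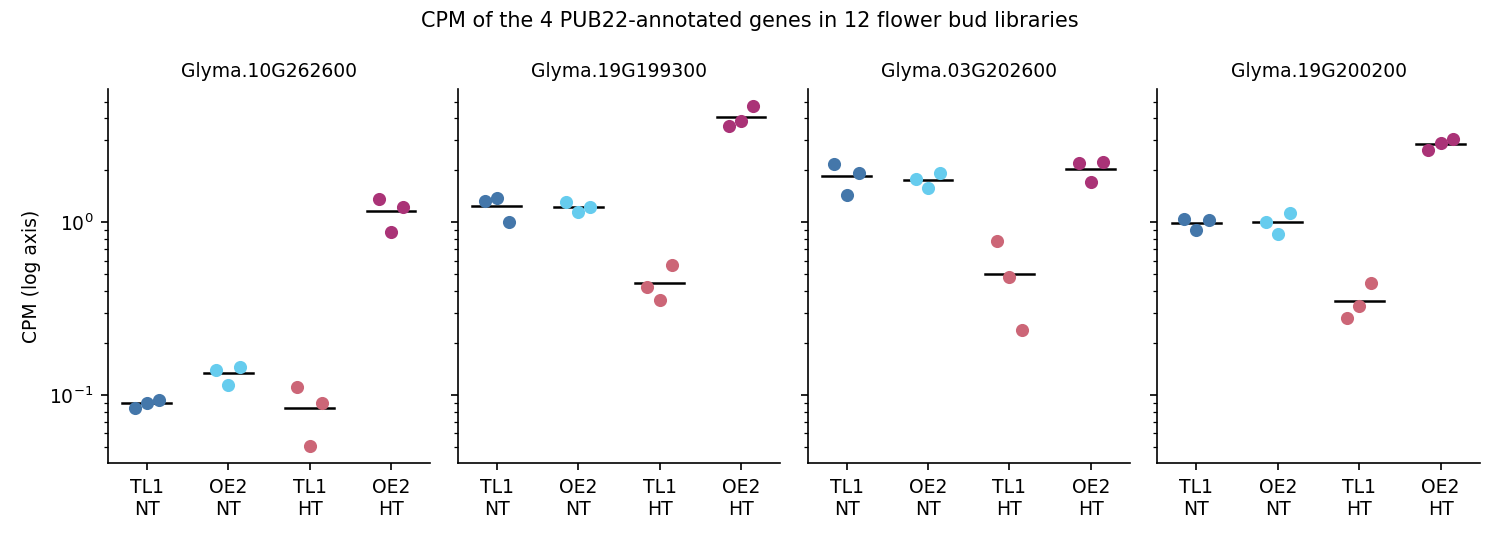
CPM (log axis) of the 4 genes annotated as PUB22 in each of the 12 libraries, by line and temperature; points are libraries and black lines are group means. In Glyma.19G199300 heated TL1 lies below and heated OE2 above the NT libraries, whereas Glyma.10G262600 is at 2 to 5 reads in every library outside heated OE2, where it has 37 to 52.

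The line difference at NT asks whether overexpression alone, without heat, came with another level of the pair. Glyma.19G199300 was not called. It had a log2 fold change (OE2 over TL1) of -0.01 (SE 0.23, 95% interval -0.49 to 0.47, adjusted p = 0.987, quasi-likelihood test of edgeR). The interval leaves out changes of 2-fold in either direction. Glyma.10G262600 had a log2 fold change of 0.56 (SE 0.61, 95% interval -0.71 to 1.83), given without a test since its NT reads alone do not pass the filter. Its count ratio was 1.49 with an exact interval of 0.602 to 3.91, so a difference of this size was not detectable at this depth. The pair's summed reads gave a log2 fold change of 0.04 (SE 0.22, 95% interval -0.42 to 0.49, adjusted p = 0.956). At NT 0.724% of the 42839 genes tested were called, with an adjusted p below 0.05 and a log2 value of at least 1 in size. By direction, 0.177% were called higher and 0.546% lower in OE2, and 18.6% had an unadjusted p below 0.05. Libraries of the lines did not overlap at NT in 27% of all genes.

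At HT both genes were far higher in OE2, the difference on which they were chosen. The log2 fold change was 3.18 (SE 0.24) for Glyma.19G199300, or 9.09-fold. It was 3.75 (SE 0.46) for Glyma.10G262600, whose count ratio was 13.9 with an exact interval of 7.13 to 31.1. Without replicate 3 of heated OE2 the log2 values were 3.06 and 3.71. The libraries of the lines did not overlap for either gene. At HT 2.77% of all genes were called and 2% were called higher in OE2, 32.1% had an unadjusted p below 0.05, and 32.5% had libraries that did not overlap between the lines.

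With heat, the level of Glyma.19G199300 moved in opposite directions in the lines. In TL1 it was 2.78-fold lower at HT than at NT (log2 -1.48, SE 0.27), and in OE2 it was 3.29-fold higher (log2 1.72, SE 0.21). For Glyma.10G262600 the TL1 value was near 0 and poorly measured, with 9 reads in the group at each temperature (log2 -0.10, SE 0.66, count ratio 0.927 with an exact interval of 0.326 to 2.63). In OE2 it was higher at HT, from 14 reads in the group to 137 (log2 3.09, SE 0.43, count ratio 8.64 with an exact interval of 4.98 to 16.2). Without replicate 3 of heated OE2, the heat change in OE2 was 1.6 for Glyma.19G199300 and 3.04 for Glyma.10G262600. Among all genes, 23.3% were called for the heat change in TL1 (8.36% higher and 14.9% lower) and 25% in OE2 (10.6% higher and 14.4% lower). The NT and HT libraries did not overlap in 72.1% of all genes in TL1 and in 69.9% in OE2.

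The interaction, the heat change in OE2 minus that in TL1, had almost equal estimates in the pair. The 95% interval was 2.49 to 3.90 for Glyma.19G199300 and 1.46 to 4.92 for Glyma.10G262600, too wide to show that they are equal. The interaction was 3.20 on the log2 scale (SE 0.34) for Glyma.19G199300 and 3.19 (SE 0.83) for Glyma.10G262600, and 3.07 and 3.15 without replicate 3 of heated OE2. In Glyma.19G199300 it combined a lower level in heated TL1 with a higher one in heated OE2. In Glyma.10G262600 the 95% interval of the TL1 heat change, -1.48 to 1.27, was too wide to show whether that level was also lower in heated TL1. Over all genes, 3.1% were called for the interaction with an absolute log2 value of at least 1, and 12.4% at the adjusted p alone.

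Close copies can share reads, and the way reads were divided between copies is not given in the sources used here. A split of reads between the members leaves their sum the same, whereas reads shared with other genes annotated as PUB22 could change it. The sum of the pair was 1.32 ± 0.202 CPM in TL1 and 1.36 ± 0.0954 CPM in OE2 at NT. With heat it was 0.531 ± 0.125 CPM in TL1 and 5.22 ± 0.637 CPM in OE2 (SD, n = 3 for each group). The summed heat change was -1.33 (SE 0.25) in TL1 and 1.93 (SE 0.19) in OE2 on the log2 scale, or 1.83 in OE2 without replicate 3 of heated OE2. The summed line difference at HT was 3.30 (SE 0.22) and the interaction 3.26 (SE 0.32), or 3.20 and 3.16 without replicate 3 of heated OE2. Over all 4 genes annotated as PUB22, the mean summed level at NT was 4.16 CPM in TL1 and 4.13 CPM in OE2. With heat that level was 1.38 CPM in TL1 and 10.1 CPM in OE2.

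The balance between the members, which their choice at HT did not fix at NT, was read from the share of the pair's reads that fell on each gene. Of the pair's reads in TL1 at NT, Glyma.10G262600 held 6.72% (9 of 134 reads, 95% exact Clopper-Pearson interval 3.12 to 12.4%). In OE2 at NT it held 9.79% (14 of 143, interval 5.46 to 15.9%). In heated TL1 it held 15.8% (9 of 57, interval 7.48 to 27.9%), and in heated OE2 22.1% (137 of 619, interval 18.9 to 25.6%). These intervals cover counting error only, and the shares are not corrected for gene length.

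By library, the share was higher at HT than at NT in both lines without overlap, a description since the HT libraries chose the pair. It was 9.09 to 10.6% in OE2 at NT and 18.6 to 27.7% at HT, a difference in means of 12.5 percentage points. Replicate 3 of heated OE2, at 20.7%, lay between the other two. In TL1 the share was 6 to 8.57% at NT and 12.5 to 21.1% at HT, from 2 to 4 reads of the gene per library, a difference of 8.83 points. Glyma.10G262600 had 9 reads in TL1 at each temperature, so its share there moved with the reads of Glyma.19G199300. The exact intervals of the TL1 groups overlap. At HT the lines overlapped. At NT the OE2 libraries were all above the TL1 libraries, by a difference in means of 2.88 points, from 3 to 5 reads of Glyma.10G262600 per library and given without a test.

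**Figure D2:**
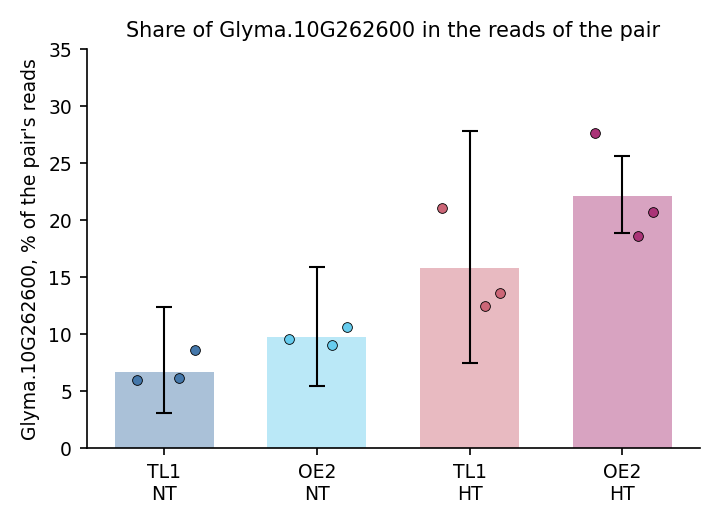
Share of the pair's reads that fell on Glyma.10G262600, in percent, by line and temperature; bars are the group's summed reads with 95% exact binomial intervals, and points are libraries. The share runs from 6.72% in TL1 at NT to 22.1% in heated OE2, and the interval is widest in heated TL1, where the pair had 57 reads in all.

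The study's annotation, of which 578 gene rows were readable, names 2 other genes PUB22. It covers only genes the study called at HT, so their line difference at HT is fixed by that choice, and other soybean copies that were not called there are not included. Glyma.19G200200 lies on chromosome 19, as Glyma.19G199300 does. It had 1.04, 0.901 and 1.03 CPM in TL1 and 1.01, 0.861 and 1.14 CPM in OE2 at NT, from 30 to 39 reads. At HT it had 0.280, 0.329 and 0.447 CPM in TL1, from 10 to 15 reads, and 2.61, 2.89 and 3.02 CPM in OE2, from 99 to 121 reads. As in Glyma.19G199300, heated OE2 was highest and heated TL1 lowest, with the NT groups overlapping between them. The line difference at NT was 0.01 on the log2 scale (adjusted p = 0.986 from edgeR's test). The heat change was -1.49 in TL1 and 1.5 in OE2, and the line difference at HT was 3.01. The last 2 values were 1.46 and 2.96 without replicate 3 of heated OE2.

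Glyma.03G202600, on chromosome 3, differed in heated OE2. It had 2.17, 1.44 and 1.93 CPM in TL1 and 1.79, 1.58 and 1.92 CPM in OE2 at NT. At HT it had 0.784, 0.481 and 0.238 CPM in TL1, from 28, 19 and 8 reads, and 2.19, 1.72 and 2.23 CPM in OE2, from 83, 72 and 87 reads. Heated OE2 thus overlapped the NT libraries of both lines, and heated TL1 lay below them. The line difference at NT was -0.07 (adjusted p = 0.928 from edgeR's test). The heat change was -1.87 (SE 0.31) in TL1 and 0.21 (SE 0.26) in OE2. Its interaction was 2.08, against 3.0 for Glyma.19G200200, and without replicate 3 of heated OE2 these were 2.02 and 2.95. For the line difference at NT, neither was called, against 0.724% of all genes. Both had an unadjusted p above 0.05, where 18.6% of all genes were below it.

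Another 10 genes of the readable annotation carry a U-box name, again all chosen as higher in OE2 at HT: 3 *PUB17*, 2 *PUB19*, 4 *PUB21* and 1 *PUB4*, the last annotated with Armadillo repeats only. In Arabidopsis, PUB17 promotes defence and cell death, and PUB19 acts in drought and abscisic acid responses. In TL1 with heat, 1 of the 10 rose and 5 fell at the thresholds (8.36% and 14.9% of all genes), with a median log2 fold change of -0.57 against -0.01 over all genes. The groups of names differed here. The 4 *PUB21* genes and the *PUB4* gene fell, by 1.01 to 3.29 on the log2 scale, most in Glyma.02G242900 (*PUB21*). The 3 *PUB17* genes had values from -0.14 to 0.01 that did not pass. The *PUB19* gene Glyma.17G090900 rose (log2 1.24), and the other, Glyma.02G034200, was under the fold threshold (log2 0.64). As in the pair, the HT libraries chose these genes. Their heat changes and the counts at the thresholds are therefore descriptions and not evidence from a test.

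In OE2 with heat, 9 of these 10 rose and 0 fell (10.6% and 14.4% of all genes), with a median of 1.5 against 0.01 over all genes. Without replicate 3 of heated OE2, 8 rose and 0 fell, with a median of 1.47. The highest was Glyma.02G034200 (*PUB19*, log2 2.81) and the lowest Glyma.09G172100 (*PUB21*, log2 0.15). The interaction, given without a test for the same reason as in the pair, ran from 0.50 in Glyma.17G090900 to 4.89 in Glyma.02G242900, or from 0.30 to 4.90 in these genes without that replicate. The comparisons with heat share the HT libraries on which these genes were chosen. At NT, where they were not, 0 of the 10 were called, against 0.724% of all genes, and the median was -0.21. An unadjusted p below 0.05 was found in 5 of the 10, against 18.6% of all genes. At the adjusted p alone, which 5.28% of all genes passed, 2 of the 10 were lower in OE2, against 2.58% of all genes, and 0 were higher. These were Glyma.11G214500 (*PUB21*, log2 -0.60, adjusted p = 0.00325) and Glyma.05G162100 (*PUB17*, log2 -0.41, adjusted p = 0.0153), both lower in OE2 at NT and higher in OE2 at HT. Glyma.05G162100 no longer passed without replicate 1 or 2 of TL1 or replicate 1 or 2 of OE2 at NT, each left out in turn (log2 -0.34 to -0.39).

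The 13 other ubiquitin genes of the annotation, mostly RING-type ligases with F-box proteins and the conjugating enzyme gene *UBC24*, were also chosen at HT. In TL1 with heat 1 rose and 3 fell (median log2 -0.39), close to the 8.36% and 14.9% of all genes. In OE2 6 rose and 0 fell (median 0.96), against 10.6% and 14.4%, with the same counts without replicate 3 of heated OE2. At NT 0 rose and 1 fell at the thresholds (median -0.17), against 0.177% and 0.546% of all genes. The 2 annotated exocyst genes, both *EXO70H1* and of the family of the Arabidopsis target of PUB22, were chosen in the same way. Glyma.12G075200 had heat changes of -0.54 in TL1 and 2.62 in OE2, and Glyma.13G331800 of -1.13 and 0.36, on the log2 scale. The changes in OE2 were 2.50 and 0.39 without replicate 3 of heated OE2. Their line differences at NT were -0.74 (adjusted p = 0.0512 from edgeR's test) and -0.44 (adjusted p = 0.464). In the fit without replicate 3 of heated OE2 the value of Glyma.12G075200 was also -0.74 and passed the adjusted p (0.0383).

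The opposite heat directions of Glyma.19G199300 were uncommon in the table. Of 42839 genes, 92 (0.215%) were called lower with heat in TL1 and also higher with heat in OE2, and 9 were called the other way round. In contrast, 2566 were called higher and 4684 lower in both lines. Among the 92 were 2 of the 4 PUB22-annotated genes, Glyma.19G199300 and Glyma.19G200200, and 4 of the 10 other U-box genes, 3 of them *PUB21* and 1 *PUB4*. Without replicate 3 of heated OE2, the heat change of the *PUB4* gene Glyma.01G165900 in OE2 was 0.97, under the fold threshold. Of the 13 other ubiquitin genes, 0 were among them, and of the 9 anther genes, 0. Genes chosen as higher in OE2 at HT are more often in this class by that choice. The shares, and the place of Glyma.19G199300 and the listed genes in the class, are therefore descriptions and no test.

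**Figure D3:**
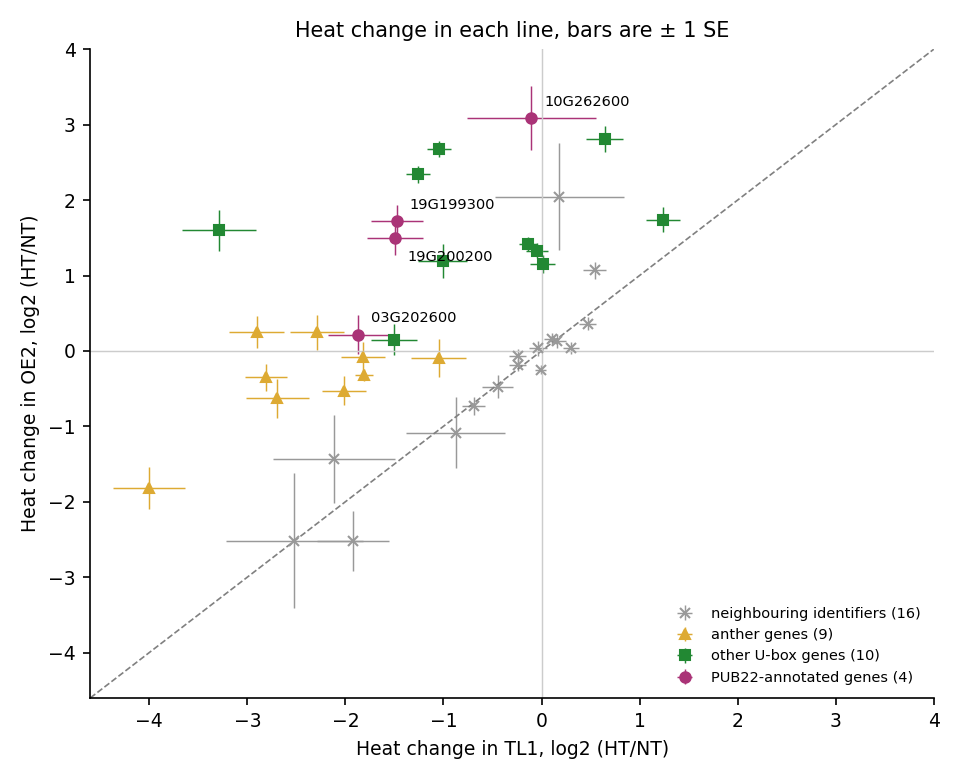
Heat change (log2, HT over NT) in TL1 on the horizontal and in OE2 on the vertical axis, with bars of 1 SE, for the PUB22-annotated genes, other U-box genes, anther genes and the identifiers next to the pair; the dashed line marks equal change. Glyma.19G199300 (-1.48 and 1.72) lies in the upper left with Glyma.19G200200, Glyma.10G262600 (-0.10 and 3.09) above the zero of TL1, and most neighbours near the line of equal change.

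No line difference was called among the identifiers around the pair at either temperature. The 5 identifiers before and the 5 after each member were taken without regard to their values, and 16 of these 20 passed the filter. By edgeR's test 0 of the 16 were called at HT and 0 at NT, with medians of 0.05 and 0.00. Over all genes 2.77% and 0.724% were called, so 0 of 16 is no result about the neighbours. At an unadjusted p below 0.05 there were 4 and 1, against 32.1% and 18.6% of all genes. In TL1 with heat 0 rose and 3 fell, and in OE2 2 rose and 4 fell, or 1 and 1 without replicate 3 of heated OE2. Over all genes 8.36% rose and 14.9% fell in TL1, and 10.6% and 14.4% in OE2. Next to Glyma.10G262600, Glyma.10G262700 rose in heated OE2 (log2 1.07, adjusted p = 6.06e-08), with 847 to 988 reads at NT and 1752 to 2692 at HT. In TL1 it had 799 to 1042 reads at NT and 1294 to 1614 at HT (log2 0.54, adjusted p = 0.000327), so both lines moved the same way. The interaction of 0.52 (SE 0.16, adjusted p = 0.0387) rested in part on replicate 3 of heated OE2, which had 68.9 CPM against 46.2 and 47.4 CPM in the others. Without it the interaction was 0.31 (adjusted p = 0.0413) and the heat change in OE2 0.86, under the fold threshold.

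On the other side of that gene, Glyma.10G262500 was called higher in heated OE2 (log2 2.05, SE 0.71, adjusted p = 0.015), but its libraries overlapped, with 0 to 9 reads at NT and 9 to 37 at HT, and the call was lost without replicate 2 of OE2 at NT (log2 1.48, adjusted p = 0.0723) or replicate 1 of OE2 at HT (log2 1.63, adjusted p = 0.0774). Around Glyma.19G199300, Glyma.19G198950, Glyma.19G199000 and Glyma.19G199900 fell with heat in both lines, from -1.43 to -2.52 on the log2 scale, and Glyma.19G199051 fell in OE2 (-1.09). Without replicate 3 of heated OE2 only Glyma.19G199000 of these 4 was still called in OE2 (-2.55). Of these, only Glyma.19G199000 had more than 40 reads in each NT library. Between Glyma.19G199300 and Glyma.19G200200 lie 7 further identifiers, a stretch chosen after the values were seen, of which 5 passed the filter. By edgeR's test 0 of the 5 were called for the line difference at HT, with 1 at an unadjusted p below 0.05, against 2.77% and 32.1% of all genes, so this is no result about the stretch.

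**Figure D4:**
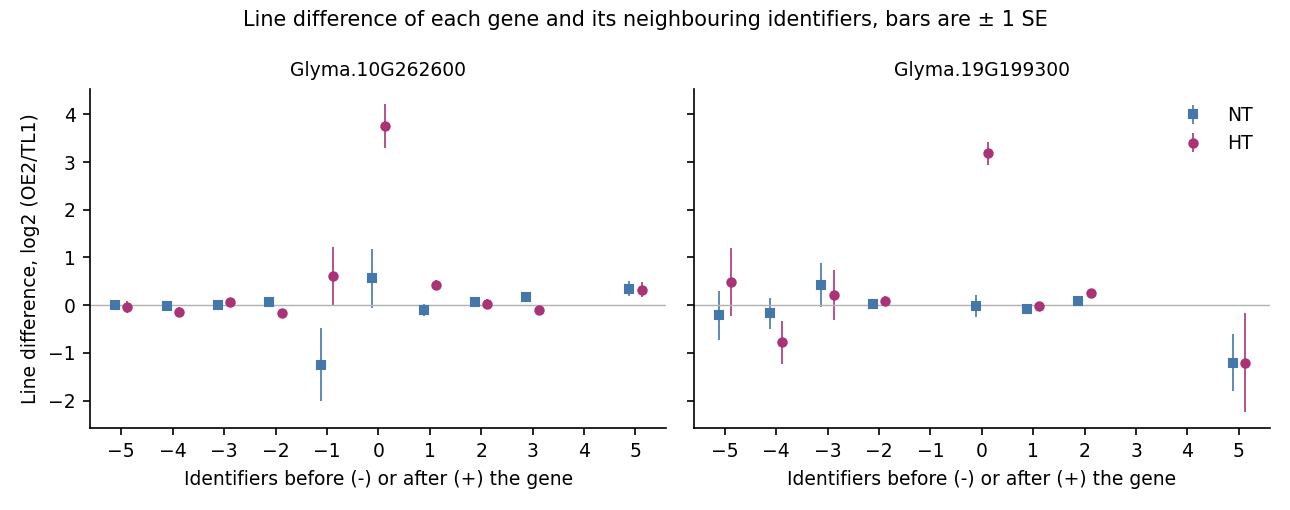
Line difference (log2, OE2 over TL1) at NT (squares) and HT (circles) for each member, at position 0, and the identifiers up to 5 places before and after it, with bars of 1 SE; identifiers that did not pass the filter have no point. At HT the members stand at 3.75 and 3.18, and 0 of the 16 neighbours was called at either temperature.

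*GmMYB21a* (Glyma.19G006500), the overexpressed gene, followed the order of the summed pair only in part. Its level was 39.5 ± 1.74 CPM in OE2 and 5.71 ± 0.585 CPM in TL1 at NT, and with heat it was 11.1 ± 0.690 CPM in OE2 and 0.941 ± 0.160 CPM in TL1 (SD, n = 3 for each group). It was highest in OE2 at NT, where the summed pair did not differ from TL1 beyond its error, and it was lower in heated OE2, where the pair was highest. Both *GmMYB21a* and the summed pair were lowest in heated TL1. At HT both were higher in OE2 than in TL1, by 3.56 and 3.30 on the log2 scale. A link between their levels was not tested. Reads of the transgene and of the gene's own copy cannot be told apart in these counts.

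Anther and pollen wall genes were also taken from those chosen as higher in OE2 at HT. Their line difference at HT is fixed by that choice. The 9 in the list include the polyketide synthase genes *PKSA* and *PKSB*, *CYP704B1* and *FAR2* of sporopollenin synthesis, and the glucanase gene *A6*. Each of the 9 was read in all 12 libraries, which are labelled flower buds. Their summed level was 83.5 to 110 CPM in TL1 and 77.4 to 108 CPM in OE2 at NT, and 18.6 to 20 CPM in TL1 and 63.4 to 85.9 CPM in OE2 at HT. In TL1 with heat 9 of the 9 fell (median log2 -2.29), against 14.9% of all genes. The choice at HT favours low values in heated TL1, so this is a description. In OE2 0 rose and 1 fell (median -0.32), near the 10.6% and 14.4% of all genes, with the same counts without replicate 3 of heated OE2. At NT 0 of the 9 were called between the lines by edgeR's test, with 1 at an unadjusted p below 0.05, against 0.724% and 18.6% of all genes. In OE2, 2 of the 9 had a positive heat change and 7 a negative one. The part of anther content in the pair's values was not tested.

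The genes most like the summed pair were found by Pearson's correlation of log2(CPM + 0.5) over the 12 libraries, a description, since these libraries fall into 4 groups and share their processing. The 5 highest were Glyma.17G047300 (r = 0.989) and Glyma.13G112400 (r = 0.988), both annotated as the ethylene response factor gene *ERF017*, Glyma.15G152900 (r = 0.987), Glyma.19G200200 (*PUB22*, r = 0.984) and Glyma.06G036300 (r = 0.982). Glyma.15G152900 and Glyma.06G036300 are not among the readable annotated rows. By Spearman's rank correlation 0 of these 5 remained among the first 5, with rho from 0.776 to 0.909, and without replicate 3 of heated OE2 4 of them remained by Pearson's r.

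The *ERF017* genes encode transcription factors of the AP2/ERF family. Like the summed pair, they were highest in heated OE2 and lowest in heated TL1, an order that their choice by correlation favours. Glyma.17G047300 had 1.04 ± 0.142 CPM in TL1 and 0.916 ± 0.296 CPM in OE2 at NT, and with heat 0.238 ± 0.145 CPM in TL1 and 8.80 ± 1.36 CPM in OE2 (SD, n = 3 for each group). Glyma.13G112400 had 2.33 ± 0.458 and 2.24 ± 0.126 CPM at NT, and 0.849 ± 0.0990 and 16.4 ± 1.29 CPM at HT, in the same order. Glyma.06G036300 had the smallest fold between the heated lines among the 5 (log2 0.83), with 23.4 ± 0.129 CPM in heated TL1 and 41.4 ± 2.01 CPM in heated OE2.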

How the data were processed

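The authors deposited 1 table of whole-number read counts per gene, not normalized, for 12 libraries of soybean flower buds. Reads were trimmed and filtered by the authors. StringTie 2.1.3b is named in the submitters' processing notes, and the aligner, genome build and strand setting are not given in the sources used here. Of 53808 genes, 2982 had no count, and 0 rows named no gene. Total counts were 32058303 to 39654590 per library.

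Counts were fitted in 1 model of the 4 groups with edgeR 4.0.16 (R 4.3.3): TMM, filterByExpr, quasi-likelihood test, with p-values adjusted by Benjamini-Hochberg over all 42839 genes that passed the filter. A gene was called where the adjusted p was below 0.05 and the log2 value at least 1 in size, and "rose" and "fell" are used of called genes. One fit of all libraries was used since filters on 6 libraries can remove Glyma.10G262600. The summed pair was fitted with both rows replaced by their sum. Replicates are separate biological samples per the paper. The chi-square per degree of freedom between replicates was 2.71 to 14.8, above sampling noise in every pair, and highest with replicate 3 of OE2 at HT. Alternatives were RLE size factors, DESeq2 1.42.0, no filter, 6 libraries per comparison, Glyma genes only, a replicate block and each library left out. The count of genes with opposite heat directions and its alternatives, and those for lists, neighbours and other named genes, were chosen after seeing the data. In simulated counts with 200 genes changed 4-fold in heated OE2, the fit called 200 at HT with 2 false calls among 42226 genes. The changed genes were drawn from those with a mean of at least 1 CPM over all libraries. Glyma.10G262600 was below that level in each group but heated OE2, so the recovery says nothing about it.

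Named genes were the members, *GmMYB21a*, PUB22-annotated genes, the extremes of the other U-box genes, called neighbours and the 5 genes most like the summed pair; the 2 U-box genes lower at NT, the *EXO70H1* genes and the uncalled values of *PUB17* and *PUB19* genes were added after their values were seen. Members and lists were chosen with earlier results of these data known. Lists came from the annotation of the study's genes called at HT. A planned comparison of sequences was not run, and no sequence or coordinate is printed, since the tables used here hold none for the files' build.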

Additional observations from a re-analysis of the deposited data

Results flagged for a closer look

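The interaction of line and temperature in edgeR's fit had a positive value for all 4 genes annotated as PUB22, given as a description. On the log2 scale, OE2 minus TL1, it was 3.19 for Glyma.10G262600, 3.20 for Glyma.19G199300, 3.26 for their sum, 3.0 for Glyma.19G200200 and 2.08 for Glyma.03G202600. All 4 were picked as higher in OE2 at HT, and that choice favours a positive interaction, so no test is attached to these values. Of the 16 neighbours tested, 1 passed the interaction at the adjusted p alone, against 12.4% of all genes. That neighbour was Glyma.10G262700, named since its heat change in OE2 was called, with an interaction of 0.52 (adjusted p = 0.0387, quasi-likelihood test of edgeR). Without replicate 3 of OE2 at HT, which stands apart from the others of its group, it was 0.31 (adjusted p = 0.0413), and it did not pass without replicate 1 or 2 of TL1 at NT, replicate 1 or 3 of OE2 at NT, or replicate 1, 2 or 3 of TL1 at HT, each left out in turn (0.49 to 0.55).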

How the results depend on the processing

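The values of the members and their sum kept their direction and their side of the thresholds under the 6 other settings (5 for the interaction, which has no fit of 6 libraries) and with each of the 12 libraries left out (265 values), apart from directions of values near 0 that were never called. For values that use the HT libraries this describes the processing only and is no test, since those libraries chose the pair. The heat change of Glyma.10G262600 in TL1 lay between -0.36 and 0.17 when each library was left out, and the line difference at NT between -0.14 and 0.08 for Glyma.19G199300 and between -0.08 and 0.12 for the sum. The interaction lay between 2.92 and 3.45 for Glyma.10G262600 and between 3.05 and 3.39 for Glyma.19G199300. In the fits of 6 libraries, Glyma.10G262600 did not pass the filter for the line difference at NT or the heat change in TL1 and has no value. The count of genes with opposite heat directions was 80 to 100 (main value 92), and the genes called at NT 215 to 392 (main value 310). Replicate numbers did not pair the libraries: same-numbered libraries of different groups had correlations of deviations from -0.135 to 0.120, and others from -0.130 to 0.116. With the number as a replicate block the interaction was 3.18 for Glyma.10G262600, 3.20 for Glyma.19G199300 and 3.27 for the sum. The genes called at NT were then 272, and no value of a member changed its side of the thresholds. The interaction of Glyma.10G262700 no longer passed in that fit (0.52, adjusted p = 0.0572 from edgeR's test). Depth limits Glyma.10G262600 outside heated OE2, where 2 to 5 reads per library leave changes of 2-fold undetectable.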
